A study of Schizosaccharomyces pombe with 16 samples.

Results

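The 6 genes described here carry copper into fission yeast cells and hand it on inside them. They were chosen by name and known function from a table of 7019 genes: ctr4 (SPCC1393.10), ctr5 (SPAC1142.05), ctr6 (SPBC23G7.16), cuf1 (SPAC31A2.11c), atx1 (SPBC1709.10c) and ccc2 (SPBC29A3.01). All 6 are protein coding and all 6 passed the filter on low counts. RNA was sequenced from 16 libraries in 8 groups of 2 replicates. Wilmar-A, an ancestral wild h90 isolate, and Wilmar-P, an h90 isolate used for bioethanol production and obtained from it by passage through molasses, were each grown in rich YES medium at 32 °C for 4 h with 3% glucose (glucose), with 3% glycerol and 0.1% glucose (glucose-deficient) or with 3% glycerol alone (glucose-starved). Wilmar-P and the laboratory strain 972h- were each also grown for 4 h in molasses. As a check of the strain labels, the galactose genes gal1, gal7 and gal10 had at most 4 counts in each of the 14 Wilmar libraries and 40 to 272 counts in the 2 laboratory libraries. Laboratory cells were analysed here on molasses only, so strain and medium are compared separately.

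Copper is needed by enzymes that handle oxygen and iron and is toxic when free in the cell. In *S. pombe*, Ctr4 and Ctr5 are membrane proteins that work together as a copper transporter of the plasma membrane, and Ctr6 releases copper stored in the vacuole. Cuf1 is a transcription factor that activates ctr4, ctr5 and ctr6 when copper is scarce by binding a short upstream sequence, the copper-signalling element (CuSE). Atx1 is a small cytosolic chaperone, and Ccc2 is a copper-pumping ATPase of the secretory pathway that supplies copper to enzymes such as the ferroxidase Fio1.

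The CuSE is shown for ctr5, a transporter gene that varied widely between libraries, and for ccc2, the member with the strongest test result. A 10-letter degenerate form of the element was searched on both strands over 1000 bases before each start codon, in the RefSeq sequence and annotation of build ASM294v3. Capitals mark matches, all of which share the core GCTG, or CAGC where the match lies on the opposite strand. The ctr5 sites lie at chrI:3635292-3635315, chrI:3635412-3635441 and chrI:3635530-3635559 on the plus strand, and all but the first fall inside the transcript annotated in RefSeq. The ccc2 sites lie at chrII:2037593-2037622 and chrII:2037695-2037724 on the plus strand, inside its RefSeq transcript. RefSeq transcripts differ from the gene spans used for counting (ASM294v2), in which ctr5 starts at 3635293 and ccc2 at 2037987.
ctr5 site 1: ATTTTGCTGAgcgaTTATAGCTGG
ctr5 site 2: atttgagcgtTCAGCTTAATtgaacattca
ctr5 site 3: cgaaaaaggcCCAGCTCATAgagagatatt
ccc2 site 1: aaaaagacttTATTAGCTGGctttgtttaa
ccc2 site 2: ggcttgtctcTTTTTGCTGTtgacttacat

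In the 1000-base windows ctr5 held 4 matches, ctr6 held 3, ccc2 held 2, cuf1 held 1 and atx1 held 0. Of 5144 genes searched in the same way, 64.9% had at least 1 match, 28.9% at least 2, 9.06% at least 3 and 2.24% at least 4. All 4 ctr5 matches lay within 500 bases of the start codon, where 0.194% of genes held at least 4. Within those 500 bases ccc2 held 2 matches, ctr6 held 1, and cuf1 and atx1 held 0. At least 2 were held there by 9.25% of genes and at least 1 by 39.6%. A match is a description of the letters and not of binding.

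Library totals ranged from 13246648 to 18164249 counts (median 14363853). Ribosomal RNA genes took 9.77% of the counts in Wilmar-P molasses replicate 2 and at most 2.68% in any other library. Levels are given as CPM, a gene's count scaled to 1000000 counts of its library, after TMM adjustment between libraries. A count of 3 is at most 0.2265 CPM, and the lowest value of any member in any library was 11.5 CPM. In 3 groups, Wilmar-P glucose and both glucose-deficient ones, replicate 1 was labelled unstranded, and the other 13 libraries were labelled stranded. Wilmar-A glucose replicate 1, labelled stranded, behaved like the unstranded libraries. Non-coding genes took 8.43 to 8.75% of the counts in these 4 libraries and 1.19 to 2.41% in the other 12. SPNCRNA.923, which runs antisense to ctr5 over 567 bases, had 5123 to 6221 counts in the 4 libraries and 4 to 147 in the other 12. The ctr5 counts in the 4 libraries were 12196 to 14068. Without strand, a read in the shared bases counts for both genes. In the second replicates of the same groups, labelled stranded, SPNCRNA.923 had 4 to 19 counts, 0.0728 to 0.395% of those of ctr5. The atx1 gene overlaps its neighbour rrf1 on the opposite strand by 71 bases. Replicates were not described as separate cultures, so p-values measure the spread between these samples, which may be technical.

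ctr4 lies on chromosome III at 818302-819361 (ASM294v2, plus strand, 1 exon). Its glucose values were 378 and 271 CPM in Wilmar-A and 422 and 134 CPM in Wilmar-P. In glucose-deficient medium they were 386 and 229 CPM in Wilmar-A and 431 and 247 CPM in Wilmar-P. In glucose-starved medium it was at 157 and 38.3 CPM in Wilmar-A and 205.7 and 11.5 CPM in Wilmar-P. The molasses values were 106.5 and 132 CPM for Wilmar-P, against 17.9 and 12.2 CPM for the laboratory strain. The highest group mean was 22.5 times the lowest, the widest range of the 6 members, and the 4 glucose and glucose-deficient groups overlapped one another.

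ctr5 lies on chromosome I at 3635293-3636572 (plus strand, 1 exon). It stood at 586 and 499 CPM in Wilmar-A and 648 and 306 CPM in Wilmar-P in glucose, and at 622 and 401 CPM in Wilmar-A and 715 and 391.7 CPM in Wilmar-P in glucose-deficient medium. The glucose-starved libraries held both the highest value of the 14 Wilmar libraries and the lowest, at 861 and 160 CPM in Wilmar-A and 1130 and 174 CPM in Wilmar-P. The molasses values were 208 and 255 CPM for Wilmar-P, against 52.4 and 52.5 CPM for laboratory cells. Laboratory molasses was last in the order of the groups and Wilmar-P molasses next to last, and neither overlapped its neighbour in that order. The Wilmar-P molasses values did lie within the range of the starved replicates of each isolate, and the second starved replicates were lower.

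ctr6 lies on chromosome II at 2100018-2101253 (plus strand, 5 exons) and had its highest group means in glucose-starved medium, at 568 and 240 CPM in Wilmar-A and 631 and 278 CPM in Wilmar-P. The glucose values were 145 and 260 CPM in Wilmar-A and 130 and 174 CPM in Wilmar-P, and the glucose-deficient values 241 and 316 CPM in Wilmar-A and 208 and 226 CPM in Wilmar-P. The lowest were on molasses, at 120 and 125 CPM in Wilmar-P and 75.1 and 81.8 CPM in the laboratory strain, where neither group overlapped the next.

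cuf1, the regulator, lies on chromosome I at 407714-409872 (minus strand, 1 exon) and its group means varied by 2.09 times. It was at 59.2 and 77.4 CPM in Wilmar-A and 63.1 and 87.0 CPM in Wilmar-P in glucose, and it remained between 47.6 and 68.2 CPM in the 8 glucose-deficient and glucose-starved libraries. Molasses gave the lowest values, 41.2 and 36.1 CPM in Wilmar-P and 41.3 and 30.5 CPM in laboratory cells, which overlapped each other and no other group.

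atx1 lies on chromosome II at 1119387-1120335 (minus strand, 2 exons) and was the most even member, between 104.2 and 175 CPM over all 16 libraries with a highest group mean 1.34 times the lowest. The 2 highest values, 175 and 160 CPM, were the second glucose replicates of Wilmar-A and Wilmar-P, and the first replicates of those groups were at 115.8 and 107.2 CPM.

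ccc2 lies on chromosome II at 2037987-2040717 (plus strand, 1 exon). It stood between 191 and 295 CPM in the 12 Wilmar libraries on laboratory media, at 323 and 402 CPM in Wilmar-P on molasses and at 66.0 and 81.5 CPM in laboratory cells on molasses. Both ends of this order stood apart from their neighbours, and each of the 6 groups between them overlapped its neighbours among the 6. Per kilobase of gene, which allows genes to be compared, ctr5 led the members in Wilmar-P on molasses at 181 ± 26.4 CPM per kb (SD, n = 2), followed by atx1 at 138 ± 3.2, ctr6 at 137 ± 3.9, ccc2 at 133 ± 20.5, ctr4 at 112 ± 17.0 and cuf1 at 17.9 ± 1.7. In laboratory cells the order was different, with atx1 at 145 ± 16.5 CPM per kb, ctr6 at 87.8 ± 5.3, ctr5 at 41.0 ± 0.1, ccc2 at 27.0 ± 4.0, cuf1 at 16.6 ± 3.5 and ctr4 at 14.2 ± 3.8.

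**Figure D1:**
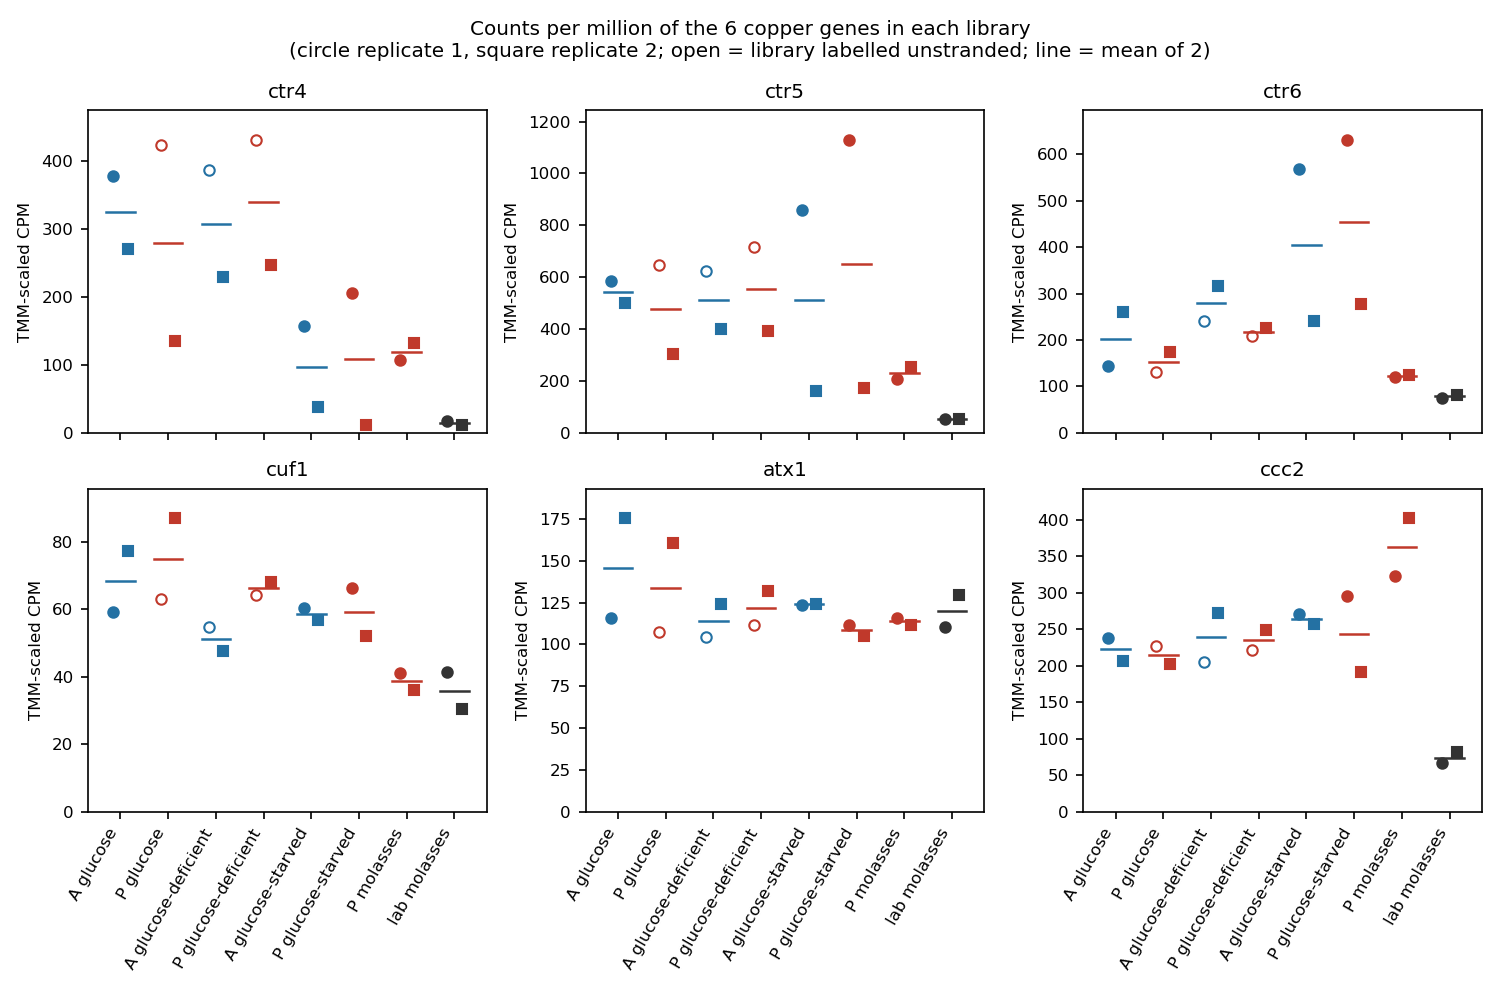
TMM-scaled CPM of each gene (linear axes starting at 0) in the 8 groups, with Wilmar-A in blue, Wilmar-P in red and laboratory cells in black; circles are replicate 1, squares replicate 2, open symbols libraries labelled unstranded, and lines the mean of 2. The glucose-starved replicates of ctr4, ctr5 and ctr6 lie far apart, and the laboratory ccc2 values of 66.0 and 81.5 CPM lie below all 14 Wilmar values.

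On molasses, the question was how the production isolate differs from laboratory *S. pombe* in the medium it ferments. ccc2, the pump of the secretory pathway, was 4.91 times higher in Wilmar-P than in laboratory cells by group means, a log2 fold change of 2.30 (SE 0.26, adjusted p = 0.0010, edgeR quasi-likelihood test). It was the only member called, where a call needs a change past 1 on the log2 scale in either direction with an adjusted p under 0.05, against a background of 0.552% of 5073 protein-coding genes called higher and 1.73% called lower. In bulk RNA, fewer cells with a transcript and less of it per cell cannot be told apart. The call on ccc2 held under every alternative fit run, with adjusted p-values up to 0.0147 and log2 fold changes of 2.13 to 2.46.

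Both partners of the plasma membrane transporter had larger or similar differences on molasses but did not pass the test. The ctr4 mean was 7.92 times higher in Wilmar-P (log2 fold change 2.99, SE 1.01, adjusted p = 0.177), and the ctr5 mean 4.41 times higher (2.14, SE 0.80, adjusted p = 0.230). Neither gene's replicates overlapped between the strains on molasses. Their SEs are set by the spread over all 8 groups, which for both genes was wide on the laboratory media. A fit to the 4 molasses libraries alone called both, with log2 fold changes of 2.95 for ctr4 (adjusted p = 0.0050) and 2.107 for ctr5 (adjusted p = 0.0083), and DESeq2's Wald test on all libraries called ctr5 (adjusted p = 0.0456) but not ctr4 (adjusted p = 0.0700).

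The vacuolar gene ctr6 was 1.56 times higher in Wilmar-P on molasses (log2 fold change 0.65, SE 0.44, adjusted p = 0.515). For cuf1 the log2 fold change was 0.11 (SE 0.23) and for atx1 it was -0.07 (SE 0.21). In all, 4 of 6 members had replicates that were higher in Wilmar-P without overlap, where 30.8% of protein-coding genes did so, and 0 were lower without overlap, against 20.1%. The median log2 fold change of the members was 1.39 and that of protein-coding genes 0.05.

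**Figure D2:**
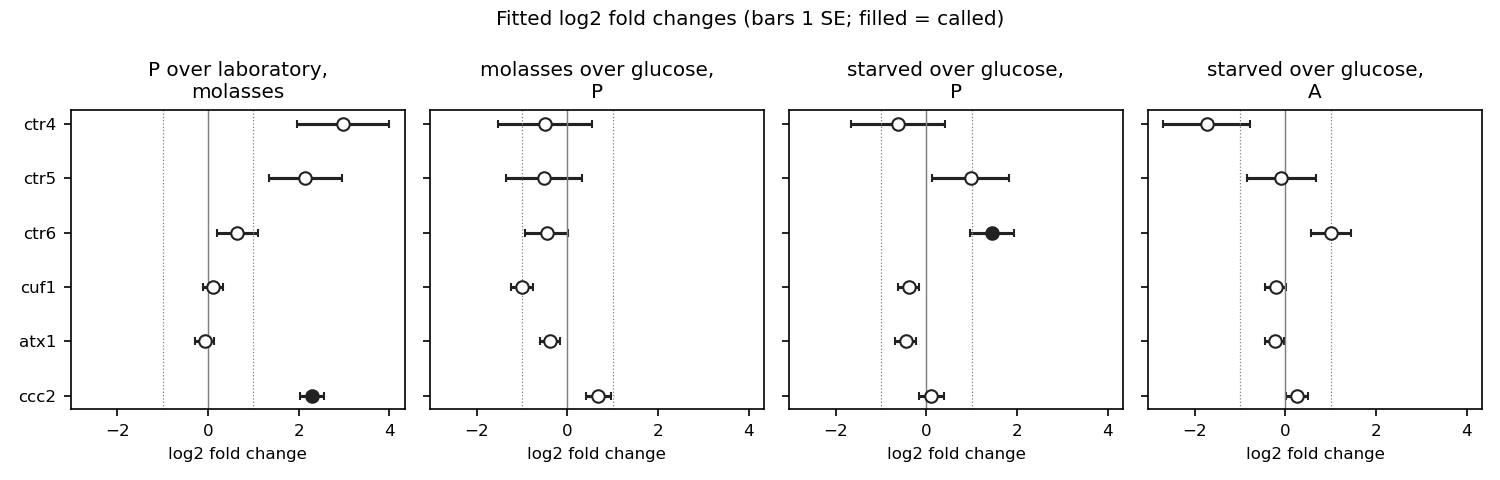
Fitted log2 fold change of each gene (x axis, bars 1 SE, dotted lines at -1 and 1) in 4 comparisons, with P for Wilmar-P and A for Wilmar-A; filled points were called. On molasses ccc2 at 2.30 has a narrow bar and ctr4 at 2.99 a wide one, and in glucose-starved medium only ctr6 in Wilmar-P, at 1.44, was called.

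The surroundings of ccc2 were examined because the study describes extra copies of this gene in the isolates. Of the 5 protein-coding genes on either side, between 2025363 and 2050092 on chromosome II, 0 of 10 were called between Wilmar-P and laboratory cells on molasses with edgeR or DESeq2. In edgeR 3 of the 10 had an unadjusted p below 0.05, where 14.4% of protein-coding genes did. Their log2 fold changes ran from -0.93 for gid2 to 0.71 for rpl8, with a median of 0.37, so that ccc2 stood 1.93 above that median on the log2 scale. The nearest neighbours were SPBC29A3.21 at 0.53 (SE 0.24) and his7, a histidine biosynthesis gene, at 0.39 (SE 0.22). Relative to the median CPM per kb of these 10 genes, ccc2 was at 0.318 and 0.474 in laboratory cells on molasses and at 1.33 and 1.60 in Wilmar-P on molasses. The same ratio was 1.03 to 1.33 in the 8 glucose and glucose-deficient libraries and 0.401 to 0.733 in the 4 glucose-starved ones, where ccc2 itself stood at 191 to 295 CPM. The lowest of these, 0.401 in the second starved replicate of Wilmar-P, lay between the 2 laboratory values. With the 10 genes on either side as reference instead, the ratio was 0.689 and 0.961 in laboratory cells. It was then 1.75 to 3.53 in the 14 Wilmar libraries, without overlap, so the separation depended on the set of neighbours.

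**Figure D3:**
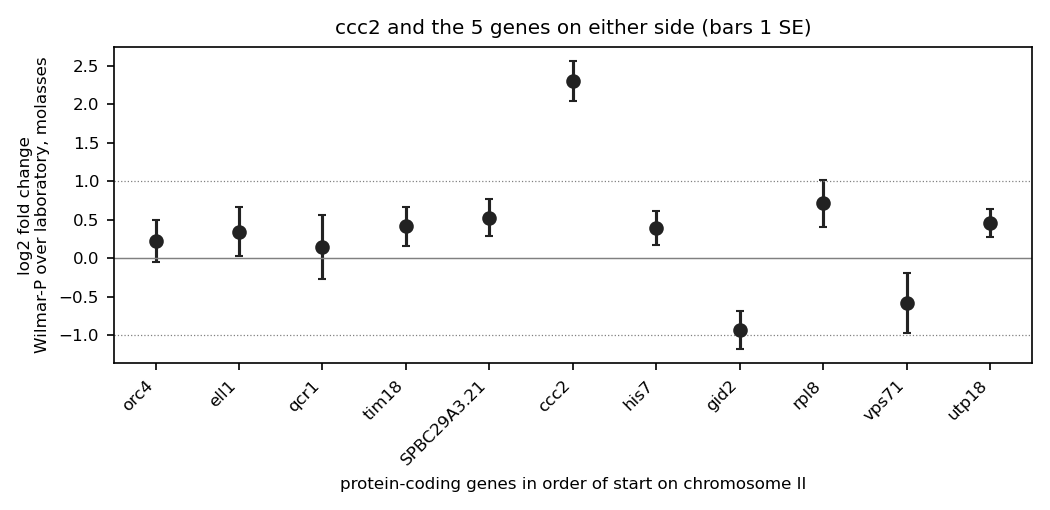
Log2 fold change of Wilmar-P over laboratory cells on molasses (y axis, bars 1 SE) for ccc2 and the 5 protein-coding genes on either side, in order of start. ccc2 stands at 2.30 and its neighbours between -0.93 and 0.71.

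Between the isolates on laboratory media, 0 of 6 members were called in glucose, in glucose-deficient medium or in glucose-starved medium, with edgeR or with DESeq2, and 0 of the 18 values had an unadjusted p below 0.05. The background was 0.0197%, 0.0788% and 0.118% of protein-coding genes called in the 3 media. The shares with an unadjusted p below 0.05 were 5.74%, 3.02% and 5.14%. Fitted log2 differences of the production isolate from its ancestor ran from -0.95 to 0.36. The lowest was ctr4 in glucose, where the group means differed by -0.22. For ctr5 in glucose the fitted value was -0.71 and the group means differed by -0.19. The fit takes Wilmar-P glucose replicate 1 as unstranded and Wilmar-A glucose replicate 1 as stranded, though both behaved as unstranded. Averaged over the 3 media, where 0.414% of protein-coding genes were called, ccc2 was at -0.04 with an interval of 2 SE on either side from -0.34 to 0.26, and atx1 at -0.02 with an interval from -0.27 to 0.22. The interval for cuf1, at 0.19, ran from -0.08 to 0.45 and that for ctr6, at -0.15, from -0.68 to 0.38. The transporter partners were less well determined, with an interval from -1.34 to 0.90 for ctr4, at -0.22, and from -1.01 to 0.83 for ctr5, at -0.09.

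The change from glucose to a poorer carbon source was compared within each isolate, and these comparisons share the glucose libraries of that isolate. In glucose-deficient medium 0 of 6 members were called in either isolate with edgeR or DESeq2, where 2.42% of protein-coding genes were called in Wilmar-P and 9.68% in Wilmar-A. An unadjusted p below 0.05 was found for 0 of the 12 values, against 21.0% of protein-coding genes in Wilmar-P and 31.8% in Wilmar-A. ctr6 had a log2 fold change of 0.53 (SE 0.44) in Wilmar-P and 0.60 (SE 0.47) in Wilmar-A, and the other members lay between -0.65 and 0.43. With 1 library left out, ctr6 in Wilmar-A ranged from 0.23 to 1.08.

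In glucose-starved medium ctr6, which draws on vacuolar copper, rose in Wilmar-P with a log2 fold change of 1.44 (SE 0.49, adjusted p = 0.0403). It was the only member called there, against 16.1% of protein-coding genes called higher, and both starved values lay above both glucose values, as for 34.0% of protein-coding genes. In Wilmar-A its log2 fold change was 0.998 (SE 0.45, adjusted p = 0.0864), with overlapping replicates. The call in Wilmar-P was lost with the replicate number as a block (1.25, adjusted p = 0.0898), with only the libraries labelled stranded (1.39, adjusted p = 0.156), with only the groups compared (1.40, adjusted p = 0.0544), and without either glucose replicate or the first starved replicate, the last of which gave 0.73. In Wilmar-A it was gained with DESeq2 (1.08, adjusted p = 0.0357) and without the second glucose replicate (1.48) or the second starved replicate (1.49).

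ctr4 had a log2 fold change of -1.73 in glucose-starved against glucose Wilmar-A cells (SE 0.96, adjusted p = 0.158) and of -0.63 in Wilmar-P (SE 1.04, adjusted p = 0.690). For ctr5 the values were -0.09 in Wilmar-A (SE 0.77) and 0.98 in Wilmar-P (SE 0.85). Group means of ctr4 differed by -1.73 in Wilmar-A and -1.36 in Wilmar-P, and those of ctr5 by -0.09 and 0.45. Of the glucose and glucose-starved libraries, only Wilmar-P glucose replicate 1 was labelled unstranded, so the library type term enters the Wilmar-P values only. The fitted values of cuf1, atx1 and ccc2 lay between -0.46 and 0.25 in both isolates, and these genes were not called. The background called lower was 13.9% of protein-coding genes in Wilmar-P and 18.6% in Wilmar-A, where 16.2% were called higher. Without overlap of replicates, ctr4 was lower in starved Wilmar-A, against a background of 40.0%, and ccc2 was higher, against 35.7%. The change from glucose did not pass a test of difference between the isolates for any member in either medium, with edgeR or DESeq2. The log2 differences ran from -0.23 to 1.11 with a smallest unadjusted p of 0.372 in edgeR, where 0.0% of protein-coding genes were called.

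The replicates of the transporter genes disagreed in glucose-starved medium, and in the same direction in both isolates. In Wilmar-A replicate 1 was 5.34 times replicate 2 for ctr5 and 4.01 times for ctr4, taken as CPM plus 1, and these were ranks 1 and 2 of such ratios among 5073 protein-coding genes. In Wilmar-P the ratio was 16.5 for ctr4 (rank 2) and 6.46 for ctr5 (rank 3). ctr6 had ratios of 2.36 in Wilmar-A (rank 19) and 2.26 in Wilmar-P (rank 56). The median ratio of protein-coding genes was 0.965 in Wilmar-A and 0.994 in Wilmar-P. cuf1 ratios were 1.06 and 1.27, atx1 ratios 0.994 and 1.06, and ccc2 ratios 1.05 and 1.55, in the same order of isolates. In glucose and glucose-deficient medium replicate 1 was also the higher for ctr4 and ctr5, with ratios of 1.39 to 3.13 for ctr4 and 1.17 to 2.12 for ctr5 at ranks between 213 and 1097, while the ctr6 ratios there were 0.560 to 0.920. In those media replicate 1 was in each group a library that behaved as unstranded. The ranking was made after the values were seen. All 4 starved libraries were labelled stranded, and non-coding genes took 1.94 to 2.41% of their counts.

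These libraries decide the starved comparison for ctr4 and ctr5. Without the first starved replicate of Wilmar-P, ctr4 was at -3.86 against glucose and called (adjusted p = 0.0088), and without the second it was at 0.29. For ctr5 the corresponding values were -0.93 and 1.77. In Wilmar-A, ctr4 ranged from -3.08 to -1.05 and ctr5 from -1.76 to 0.66 when 1 library was left out.

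The transporter partners varied together. Across the 16 libraries the log2 CPM of ctr4 and ctr5 had a Pearson r of 0.865, a description in which libraries share group, replicate number and library type. ctr5 with ctr6 gave 0.703, ctr4 with ctr6 gave 0.332, and atx1 with ccc2 gave -0.04. Values between these were found for ccc2 with ctr5 (0.682), ctr4 (0.594) and ctr6 (0.524). The same held for cuf1 with ctr5 (0.664) and ctr4 (0.558), so shared variation was not limited to the transporter partners. Per kb, ctr4 was 0.531 to 0.786 of ctr5 in the 10 Wilmar libraries grown in glucose, glucose-deficient medium or molasses, 0.0800 to 0.289 in the 4 starved libraries and 0.281 and 0.411 in the laboratory libraries. The starved libraries thus held less ctr4 relative to ctr5 in both replicates, whichever replicate was high. The ratio of ctr6 to ctr5 per kb was 2.05 and 2.23 in laboratory cells on molasses and 0.830 and 0.702 in Wilmar-P on molasses. It was 0.288 to 1.13 over the 10 Wilmar libraries outside glucose-starved medium. In starved cells the second replicates, at 2.14 in Wilmar-A and 2.29 in Wilmar-P, were as high as the laboratory values, and the first replicates were at 0.946 and 0.7996.

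**Figure D4:**
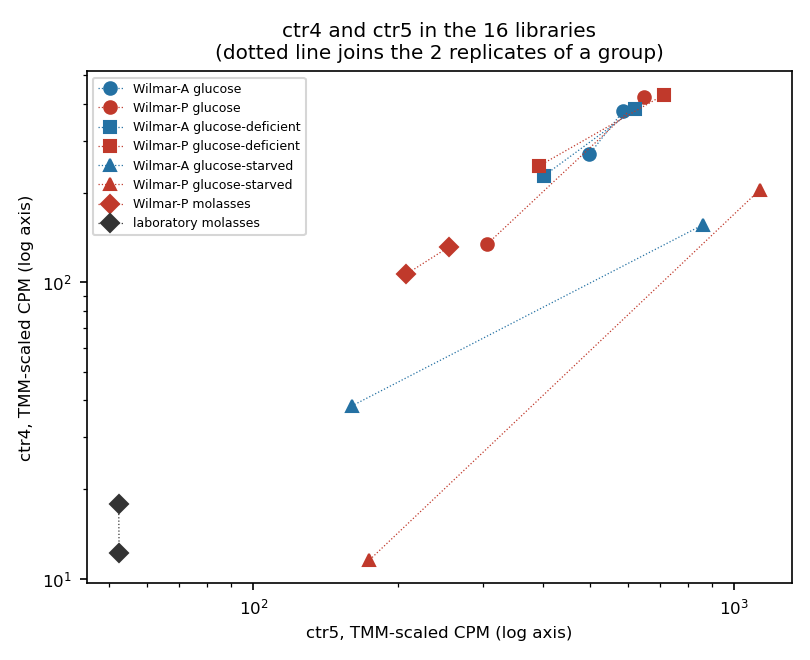
ctr4 against ctr5 in the 16 libraries, both as TMM-scaled CPM on log axes, with colour for strain and shape for medium and a dotted line between the replicates of a group. The 4 starved libraries lie below the line of the other Wilmar libraries, and in both isolates the second starved replicate lies far below the first.

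Molasses was also compared with glucose within Wilmar-P, using again the glucose libraries and the molasses libraries of the earlier comparisons. The regulator cuf1 had a log2 fold change of -1.01 on molasses (SE 0.24, adjusted p = 0.0905) and did not pass the test, though its replicates did not overlap. It was called with DESeq2 (-1.01, adjusted p = 0.0137) and with Wilmar-A glucose replicate 1 taken as unstranded (-1.04, adjusted p = 0.0213). A fit to only the groups compared, with few residual degrees of freedom, also called cuf1 (-1.13, adjusted p = 0.0039). ccc2 stood at 0.68 (SE 0.27, adjusted p = 0.319). The transporters ctr4, ctr5 and ctr6 were at -0.49, -0.52 and -0.45, with SEs of 1.04, 0.84 and 0.47, and atx1 at -0.39 (SE 0.22). These fitted values include the library type term, and the group means of ctr4 and ctr5 differed by -1.22 and -1.04 on the log2 scale. With 1 library left out, ctr4 ranged from -1.05 to -0.17. Of the 6, 4 were lower on molasses without overlap, where 24.0% of protein-coding genes were, and 1 was higher, where 33.5% were. In edgeR 0 of 6 were called in this comparison, against 1.24% of protein-coding genes. An unadjusted p below 0.05 was found for 2 of 6, against 12.6% of protein-coding genes.

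The enzymes that use copper and the chaperones that serve them were described as a list of 10 genes. In glucose-starved against glucose Wilmar-P cells, 4 rose, 1 fell and 5 were not called, where 16.1% of protein-coding genes were called higher and 13.9% lower. The list median was 0.96 and that of protein-coding genes -0.03. Those that rose were cox17, which carries copper to mitochondria (1.09, SE 0.33, adjusted p = 0.0253), the amine oxidase gene cao2 (2.109, SE 0.62, adjusted p = 0.0218), and cox1101 and cox1102 (1.04 and 1.03). The last 2 are near-identical copies of an assembly factor of cytochrome oxidase, and reads may be split between them. The glucose values of cao2 were 43.5 CPM in the unstranded library and 6.93 CPM in the stranded one, and the starved values 56.7 and 49.8 CPM. Group means of cao2 differed by 1.08 on the log2 scale, and its call was lost without a library type term (1.08, adjusted p = 0.248), without the second glucose replicate (0.98, adjusted p = 0.372) and without the first starved replicate (2.01, adjusted p = 0.0685). In Wilmar-A 2 of the 10 rose, 1 fell and 7 were not called, shares near the background of 16.2% called higher and 18.6% called lower, with a list median of 0.77 against -0.11. cox17 rose there by 1.59 (SE 0.32, adjusted p = 0.0027), and sod1, the copper-zinc superoxide dismutase, by 1.97 (SE 0.45, adjusted p = 0.0057), while sod1 in Wilmar-P was at 0.99 and not called. The sod1 glucose values were 624 and 1665 CPM in Wilmar-A and 499 and 2014 CPM in Wilmar-P. The first of each is from a library that behaved as unstranded, and the fit takes only the Wilmar-P one as such. Starved sod1 values were 3397 and 5542 CPM in Wilmar-A and 2880 and 3779 CPM in Wilmar-P. The gene that fell in both isolates was fio1, the ferroxidase that receives copper from Ccc2, at -3.30 in Wilmar-P and -2.54 in Wilmar-A. DESeq2 called 5 of the 10 in each isolate, and its share over all protein-coding genes is not given here.

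fio1 is also 1 of 7 genes in the iron uptake list, of which 5 fell and 2 were not called in both isolates in glucose-starved medium, where 13.9% of protein-coding genes were called lower in Wilmar-P and 18.6% in Wilmar-A. The list medians were -3.44 in Wilmar-P and -3.01 in Wilmar-A. The iron permease partner fip1 was at -4.47 and -3.60, the ferric reductase frp1 at -4.68 and -3.77, and the transporter genes str1 and str3 at -3.44 and -3.01 and at -7.93 and -5.61, each in Wilmar-P and then Wilmar-A. The starved str3 values in Wilmar-P were 0.168 and 0.598 CPM, the first below the level of 3 counts, so the size of that change is poorly determined. The iron regulators fep1 and php4 were not called. On molasses against glucose in Wilmar-P, fio1 at -1.67 (adjusted p = 0.0339) and str3 at -2.67 (adjusted p = 0.0205) fell and the other 5 were not called. In edgeR 1.24% of protein-coding genes were called there in either direction. DESeq2 called 5 of the 7, and its share over all protein-coding genes is not given here.

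Of 4 metal binding and storage genes, 2 rose in glucose-starved medium in both isolates, where 16.1% of protein-coding genes were called higher in Wilmar-P and 16.2% in Wilmar-A. The metallothionein gene zym1 rose by 6.97 in Wilmar-P (SE 0.78, adjusted p = 0.0001) and by 4.82 in Wilmar-A (SE 0.66, adjusted p = 0.0003), and hmt1, a vacuolar transporter of metal-binding peptides, by 1.83 and 1.96. The glutathione synthesis genes gcs1 and gsa1 were not called. The same 2 genes rose in glucose-deficient medium, zym1 by 3.73 in Wilmar-P and 3.36 in Wilmar-A and hmt1 by 1.05 and 1.15, where 2.42% of protein-coding genes were called in Wilmar-P and 9.68% in Wilmar-A. Among the copper enzymes cao1 rose in Wilmar-A by 1.19 (adjusted p = 0.0298) in that medium.

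Between Wilmar-P and laboratory cells on molasses, 0 of 4 metal binding genes and 0 of 7 iron genes were called with edgeR or DESeq2. An unadjusted p below 0.05 was found for 0 and 1 of them, against 14.4% of protein-coding genes, and fio1 stood at 0.62 (SE 0.30, adjusted p = 0.353). Of the 10 copper enzyme genes 2 fell and 8 were not called, where 1.73% of protein-coding genes were called lower, the 2 being the copies cox1101 at -1.12 (adjusted p = 0.0389) and cox1102 at -1.26 (adjusted p = 0.0262). Of these lists, 0 genes were called between the isolates in any medium with edgeR or DESeq2. In edgeR 3 of the 7 iron genes had an unadjusted p below 0.05 in glucose-starved medium, against 5.14% of protein-coding genes. The median log2 difference of that list was -0.64. Elsewhere 0 or 1 of a list had such a p, against 3.02 to 5.74% of protein-coding genes. These included 1 of the 2 meiotic copper genes in glucose and in glucose-starved medium.

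The meiotic copper genes were low. mfc1, a transporter of the forespore membrane, was between 2.05 and 24.1 CPM and was not called with edgeR in any comparison. DESeq2 called it higher in glucose-starved against glucose Wilmar-A cells (1.45, adjusted p = 0.0347), where edgeR gave 1.36 (adjusted p = 0.0705). cuf2, a meiotic regulator, stood at 7.04 to 8.26 CPM in the 4 libraries that behaved as unstranded and at no more than 0.233 CPM in the other 12. It was called lower in glucose-starved against glucose Wilmar-A cells (-4.75, adjusted p = 0.0286), a comparison of 0.161 and 0.0905 CPM with 7.04 and 0.189 CPM, in which the high glucose value is that of the library labelled stranded that behaved as unstranded.

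**Figure D5:**
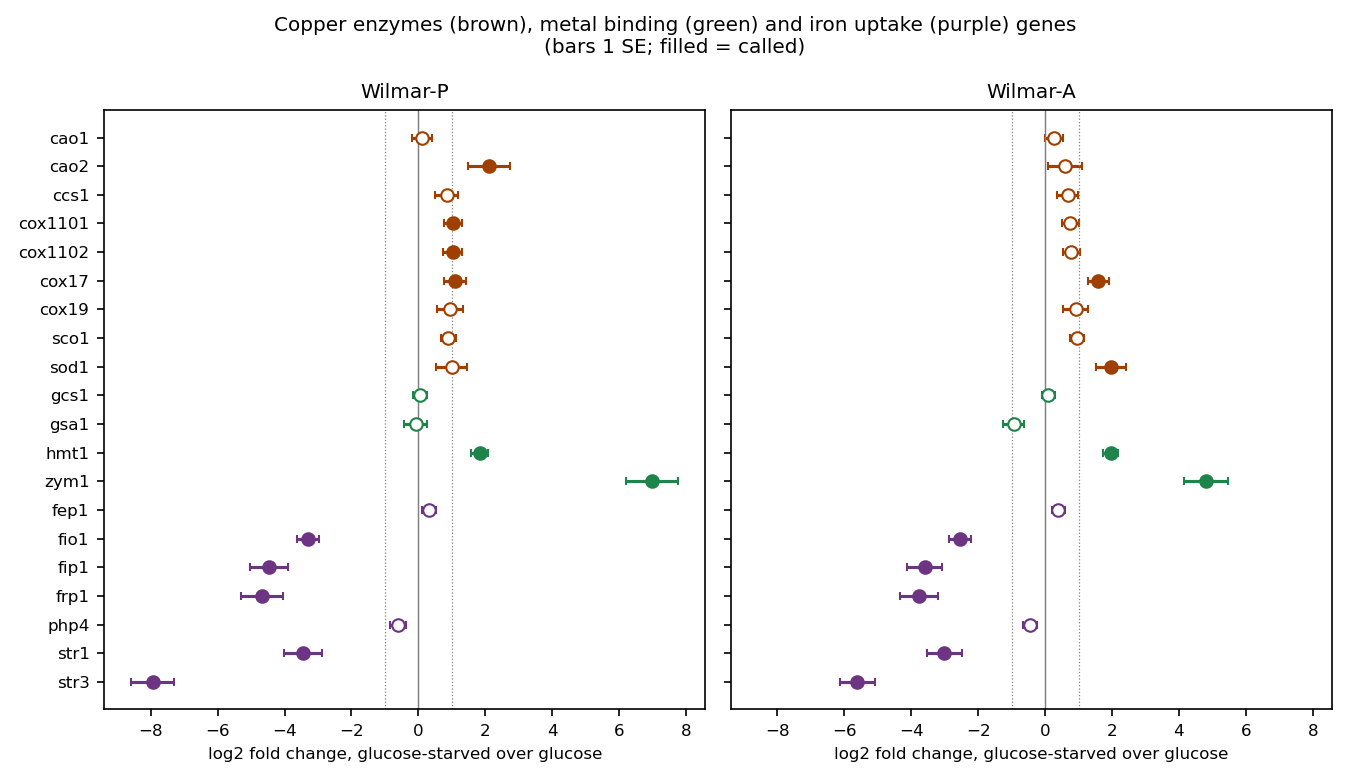
Log2 fold change of glucose-starved over glucose cells (x axis, bars 1 SE, dotted lines at -1 and 1) in Wilmar-P and Wilmar-A for copper enzyme and chaperone genes in brown, metal binding genes in green and iron genes in purple, with fio1 drawn once among the iron genes; filled points were called. zym1 lies at 6.97 and 4.82 and str3 at -7.93 and -5.61, the first of these from starved values of 0.168 and 0.598 CPM.

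For each member the 2 protein-coding genes with the most similar profile over the 8 group means were found by Pearson r of log2(CPM + 1) among 5072 others. They were dis2 (0.974) and ppr4 (0.972) for ctr4, abz1 (0.975) and chs1 (0.973) for ctr5, SPBC428.12c (0.993) and SPBC15D4.08c (0.988) for ctr6, and isp4 (0.955) and eki1 (0.953) for cuf1. For atx1 they were SPAC1039.02 (0.912) and epe1 (0.870). For ccc2 they were the ribosomal protein genes rps502 (0.980) and rpl14 (0.963), which were at 1774 and 1637 CPM in laboratory cells on molasses and at 4289 and 2667 CPM in Wilmar-P on molasses. None of the 12 was a member or belonged to a copper or iron list.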

How the data were processed

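Reads came from ribosome-depleted total RNA. After adapter trimming (Trim_Galore), the authors mapped them to ASM294v2 with Tophat2 2.1.1 and counted them with featureCounts 1.5.2, letting a read count for every gene it overlaps and using strand for stranded libraries. The deposited values are raw counts per gene, as whole numbers, in 1 table with 0 columns left unused. Of its 7019 gene IDs, 6845 matched RefSeq by locus tag. RefSeq sequence is of build ASM294v3, and 5096 of 5104 coding spans lay inside the table's gene spans.

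Genes passing filterByExpr (6662, 5073 of them protein coding) were fitted with edgeR 4.0.16 (R 4.3.3) in 1 quasi-likelihood model over all 16 libraries, with TMM scaling, a term per group and labelled library type as a covariate, and 7 residual degrees of freedom. SEs are the log2 fold change divided by the root of F. Adjusted p-values (Benjamini-Hochberg) are over all genes tested. The procedure was tested on simulated data. Levels are means ± SD of 2 replicates, and CPM per kb uses the table's gene length.

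Alternatives were DESeq2 1.42.0 (Wald test, and its size factors), no filter or at least 10 counts in every library, no library type term, a replicate block, other sets of libraries and leaving out each replicate. The genes and lists were chosen with earlier results of these data known. The 1000-base search window was chosen after a 500-base window had been searched. The upstream sequence of ctr4 is not reported here. The genes named were the 6 members, 4 lists of copper and iron genes, the 2 most similar genes of each member, the neighbours of ccc2 and the 3 galactose genes.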

Additional observations from a re-analysis of the deposited data

How the results depend on the processing

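With 2 replicates a group, single libraries carry much weight. Fits to only the groups compared leave few residual degrees of freedom. The number of the 6 members called was recomputed for 12 comparisons. On molasses against laboratory cells it rose from 1 to 2 with the DESeq2 Wald test and to 3 with only the groups compared. For glucose-starved against glucose it fell from 1 to 0 in Wilmar-P with the replicate block, with only the libraries labelled stranded, with only the groups compared, and with only the stranded libraries without Wilmar-A glucose replicate 1, a setting chosen after seeing the data. In Wilmar-A it rose from 0 to 1 with DESeq2. For molasses against glucose in Wilmar-P it rose from 0 to 1 with DESeq2, with only the groups compared and with Wilmar-A glucose replicate 1 as unstranded, which lowered the common dispersion from 0.100 to 0.0447. Leaving out 1 library gave 0 to 1 in the starved comparison of either isolate. The cause was not tested. Replicate numbers are not described as shared batches. Same-numbered replicates deviated together in glucose and in glucose-deficient medium (r = 0.920 and 0.946 between isolates, over 5073 genes). In each group of those media replicate 1 behaved as unstranded and replicate 2 as stranded, so replicate number and library behaviour cannot be told apart there. The replicates deviated together less in glucose-starved medium (0.351), and not on molasses (-0.02). The block changed no other call.

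Without TMM scaling, the highest over lowest group mean was 1.79 for atx1 (1.34 with scaling) and 3.71 for ccc2 (4.91 with scaling). For the isolates averaged over media, the sign turned without the library type term for ctr4 (0.026) and ctr5 (0.093), with the block for ctr5 (0.046), with Wilmar-A glucose replicate 1 as unstranded for ctr5 (0.050) and with only stranded libraries for atx1 (0.023). For ctr5 in glucose-starved Wilmar-A it turned with that library as unstranded (0.25) and with only stranded libraries without it (0.082).

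With 1 library left out, log2 fold changes that turned sign ranged as follows. On molasses against laboratory cells, cuf1 covered -0.095 to 0.34 and atx1 -0.19 to 0.046. Between the isolates, ctr4 covered -1.30 to 0.23, ctr5 -0.73 to 0.46, ctr6 -0.39 to 0.10, atx1 -0.10 to 0.088 and ccc2 -0.15 to 0.064. In glucose-deficient Wilmar-P, cuf1 covered -0.42 to 0.10, atx1 -0.28 to 0.055 and ccc2 -0.092 to 0.37. In glucose-deficient Wilmar-A, atx1 covered -0.46 to 0.15 and ccc2 -0.11 to 0.29. In glucose-starved Wilmar-P, ctr4 covered -3.86 to 0.29, ctr5 -0.93 to 1.77 and ccc2 -0.24 to 0.39. In glucose-starved Wilmar-A, ctr5 covered -1.76 to 0.66 and atx1 -0.51 to 0.10.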

Other observations

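In glucose-starved medium, replicates also differed for some iron and meiotic copper genes. In Wilmar-A, mfc1 stood at 24.1 and 7.60 CPM in the first and second starved replicate, fip1 at 42.5 and 15.1 CPM and str1 at 173 and 68.8 CPM. In Wilmar-P, str1 stood at 117 and 37.8 CPM, fip1 at 24.7 and 10.3 CPM and frp1 at 6.90 and 1.28 CPM. The first replicate was the higher in these cases, as it was for ctr4, ctr5 and ctr6, but not throughout the iron list: in Wilmar-P str3 stood at 0.168 and 0.598 CPM, and in Wilmar-A fep1 stood at 81.8 and 99.9 CPM and php4 at 68.9 and 75.3 CPM. The superoxide dismutase gene sod1 went the other way, at 3397 and 5542 CPM in Wilmar-A and 2880 and 3779 CPM in Wilmar-P, as did its copper chaperone gene ccs1, at 114 and 161 CPM and at 95.4 and 195 CPM. The mitochondrial copper carrier cox17 was even, at 40.5 and 42.5 CPM in Wilmar-A and 41.0 and 41.6 CPM in Wilmar-P. Of the 10 protein-coding genes with the largest ratio of replicate 1 to replicate 2 in each starved group, 2 were shared, 2 of 10 of either list, and these were ctr4 and ctr5. The others in Wilmar-P included dak2 and gut2, which act on dihydroxyacetone and glycerol 3-phosphate, at 555 and 30.01 CPM and at 146 and 28.4 CPM. These genes were singled out after their values were seen.

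The antisense RNA over ctr5, SPNCRNA.923, had 64 and 147 counts in the laboratory molasses libraries, 8.19% and 17.0% of the ctr5 counts there. In the 10 Wilmar libraries that behaved as stranded it had 4 to 25 counts.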
